A study of Rattus norvegicus with 6 samples.

Results

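The seed family of miR-25, miR-32, miR-92 and miR-363 consists of the mature rat miRNAs rno-miR-25-3p, rno-miR-32-5p, rno-miR-92a-3p, rno-miR-92b-3p and rno-miR-363-3p (rno, for rat, is left off below). These share bases 2 to 8 but are cut from different precursors. Mir363 and Mir92a2, a precursor of miR-92a-3p, lie in the same cluster, and host transcripts were not measured. The members were taken as the array probes carrying exactly these names, which gave 5 of the 761 rat miRNA probes on the array. The rule goes by name and seed, although the family was picked with earlier results of these data known. Their levels were measured by single-colour Cy5 arrays in RNA from rat oligodendrocyte precursors in culture, which mature into the glia that wrap axons in myelin. Of the 6 samples, 3 titled DIV0 were grown in Raff medium under the normal condition, and 3 titled DIV3 were allowed to differentiate in that medium after a change of growth factors. DIV3 was read as day 3 and DIV0 as day 0 of culture, so time and growth factors cannot be told apart, and strain, age, and the number of animals or cultures behind the samples are unstated in the labels. What the p-values measure is therefore the scatter of these 6 samples, part or all of which may be technical.

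A miRNA guides a silencing complex to messenger RNAs mainly through its seed, so miRNAs with one seed can bind overlapping sets of targets even when they come from separate genes. Members of this family are known in mammals to repress Bcl2l11, a trigger of cell death. The miR-17-92 cluster, which holds miR-92a, supports the expansion of oligodendrocyte precursors in mouse, and miR-32-5p has been linked in mouse to myelin production.

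The mature sequences are shown because they define the family and show how far its members differ outside the seed. They are those of RefSeq on build GRCr8, which matched 5 of 5 members by name, and the capitals mark the seed, bases 2 to 8 from the 5′ end.
miR-25-3p: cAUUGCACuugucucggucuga
miR-92a-3p: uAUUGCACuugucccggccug
miR-92b-3p: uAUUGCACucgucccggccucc
miR-32-5p: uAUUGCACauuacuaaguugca
miR-363-3p: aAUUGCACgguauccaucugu
All 5 carried AUUGCAC at these bases, and no other of the 693 mature rat miRNAs in that table did. Counted from base 1 at the 5′ end without gaps, miR-92a-3p and miR-92b-3p were the closest pair, identical at 19 of 21 bases and differing by U10C and G21C. Next came miR-25-3p and miR-92a-3p, identical at 18 of 21 bases and differing by C1U, U14C and U18C. The farthest pair was miR-25-3p and miR-363-3p, with 8 of 21 bases identical. Whether the array probes of the closest pairs capture each other's miRNA was not tested.

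The family is spread over 6 precursors. Mir25 (chr12:22156641-22156724, minus strand) is the last of 3 precursors in 483 bases, after Mir106b and Mir93, and lies inside Mcm7, a replication helicase gene on the same strand. Mir92a1 (chr15:98588555-98588632, plus strand) ends the miR-17-92 cluster of 6 precursors in 785 bases. A second precursor, Mir92a2 (chrX:137342928-137343019, minus strand), gives the identical miR-92a-3p from the X-linked cluster that runs from Mir106a to Mir363, with 5 precursors in 871 bases. Its last precursor is Mir363 (chrX:137342777-137342863, minus strand). Mir92b (chr2:176931653-176931735, minus strand) had no other miRNA precursor on its strand within 10000 bases, and neither had Mir32 (chr5:76391285-76391354, minus strand), which lies inside Tmem245, a membrane protein gene on the same strand. Because miR-92a-3p, miR-17-5p and miR-19b-3p each have an identical copy in both large clusters, their probes read the sum over both chromosomes.

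The arrays were not equally bright, and the DIV0 array of replicate 3 was much the dimmest. Its median miRNA spot lay 5.87 intensity units above the blank spots, against 25.5 to 44.7 units on the other 5 arrays. Replicates 1 and 2 each had their DIV0 and DIV3 arrays on 1 shared slide (slides 1 and 2). DIV0 always took the first position and DIV3 the second, so condition and position cannot be told apart. Among markers of the labelled cell type, 5 of 5 oligodendrocyte miRNAs were called higher in DIV3 by limma (1.15% of all miRNAs tested). For example, miR-338-3p was higher by 2.22 on the log2 scale (adjusted p = 0.017). Of the 5, 4 passed with arrays brought to one median after the offset. In the deposited values 0 of 5 passed, and all 5 had an unadjusted p under 0.05. Over all miRNAs, 1 passed with the background around each spot and 0 with slide as a fixed block (50 and 85 at an unadjusted p under 0.05). No miRNA passed without any 1 of the 3 DIV3 arrays or without the DIV0 array of replicate 3 (72 to 80 at an unadjusted p under 0.05). The summed deposited intensity of the 5 oligodendrocyte miRNAs was 189 to 746 units in DIV0 and 2616 to 4020 in DIV3. For 15 markers of neurons, microglia, blood, vessels and fibroblasts the sums were 642 to 894 and 691 to 714 units, 0 of 15 passed (1, miR-223-3p, as lower with the replicate number as a block, adjusted p = 0.038), and 13 were detected on all arrays. Their part in the results below was not tested, and in bulk RNA fewer cells of a type cannot be told apart from less RNA per cell.

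The members fell into a bright and a dim group of spots. Spot brightness depends on each probe's own affinity, so the order of brightness is not an order of abundance. Spots of miR-25-3p, miR-92a-3p and miR-92b-3p outshone all of the 513 probe-free spots on 6 of 6 arrays. Among the 761 miRNAs they held ranks 62 to 83, 82 to 98 and 94 to 130, with 1 as the brightest. Spots of miR-32-5p and miR-363-3p were detected on 6 of 6 arrays by the criterion used here, an intensity more than 2 SD above the mean of the blank spots. They were nevertheless within the range of spots without a probe on every array, and of those spots 1.17% to 17.9% were at least as bright as miR-32-5p and 0.195% to 14.2% as bright as miR-363-3p. Against a threshold taken from the spots without a probe, each was detected on 4 of 6 arrays, failing on both arrays of replicate 3. Measurements of miR-32-5p and miR-363-3p are thus close to the limit of the array.

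**Figure D1:**
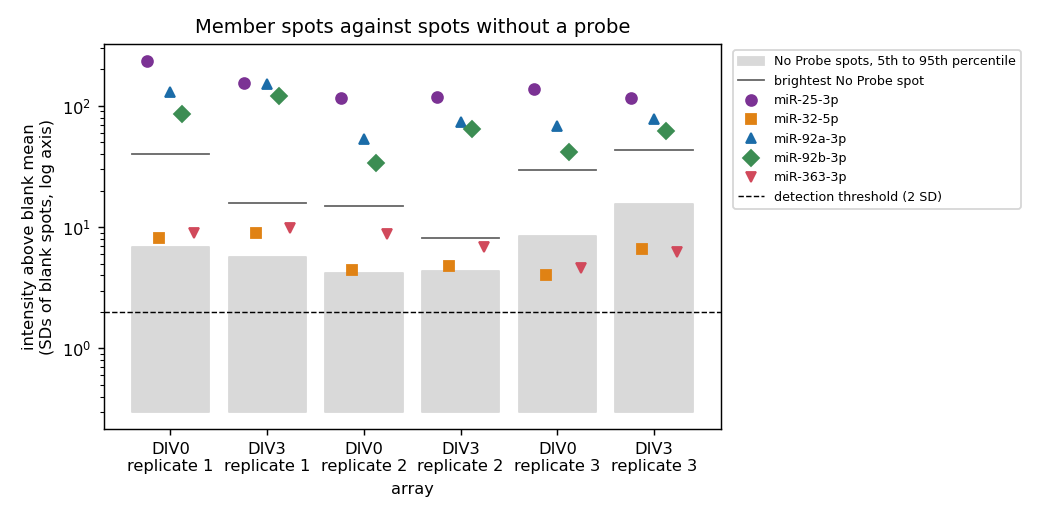
Intensity of each member's spot above the mean of the blank spots, in SDs of the blank spots on a log axis, for the 6 arrays; grey boxes span the 5th to 95th percentile of the 513 spots without a probe (drawn from 0.3 upward) and grey lines mark the brightest of them. The spots of miR-25-3p, miR-92a-3p and miR-92b-3p lie above the line on all 6 arrays, and those of miR-32-5p and miR-363-3p lie below it.

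The comparison asked whether miRNAs with one seed and different precursors differ alike between the normal and the differentiated condition. None of the 5 members passed an adjusted p of 0.05 in limma, where 2.01% of the 695 miRNAs tested did, and 1 member, miR-25-3p, had an unadjusted p under 0.05, as did 14.7% of all. With the replicate number as a block, 0 members passed. There 2 members, miR-25-3p and miR-92b-3p, had an unadjusted p under 0.05, as did 129 of the 695 miRNAs. The member values pointed in different directions: miR-25-3p was lower in DIV3, miR-92b-3p was higher in each pair of equal replicate number, and miR-92a-3p, miR-32-5p and miR-363-3p lay near no change. By direction, 0 members were called higher (1.15% of all) and 0 lower (0.863% of all), and 2 of 5 had a log2 fold change above 0 (46.6% of all). The median log2 fold change was -0.03 over the 5 members and -0.006 over all miRNAs tested.

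The clearest difference in the family was in miR-25-3p, the member encoded in Mcm7. In the authors' deposited intensities, which are scaled so that the median miRNA of an array is 25, miR-25-3p read 495, 356 and 432 units in DIV0 replicates 1, 2 and 3 and 308, 327 and 332 units in DIV3. Every DIV3 value was below every DIV0 value, an order without overlap that 18.8% of all miRNAs tested also had in normalized levels. The normalized log2 intensities were 9.29, 9.09 and 9.33 in DIV0 and 8.56, 8.93 and 8.89 in DIV3, with group means of 9.24 ± 0.13 and 8.80 ± 0.20 (SD, n = 3). The log2 fold change was -0.44 ± 0.12 (SE; 95% interval -0.73 to -0.15; limma adjusted p = 0.16), a level 1.36-fold lower in DIV3. Within pairs 1, 2 and 3 the log2 difference was -0.72, -0.16 and -0.44, so the pair on slide 1 and the pair on slide 2 had the largest and the smallest difference. With arrays brought to one median after the offset of 50 units was added, the log2 fold change turned to 0.14 (adjusted p = 0.87), with -0.68, -0.02 and 1.12 in the 3 pairs. The positive value came from pair 3, which holds the dim array. Correcting by the background around each spot also turned it, to 0.04, and for this probe that background was brighter than the spot itself on 3 of 6 arrays.

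The opposite arm of the same hairpin, miR-25-5p, did not pass. The Mir25 precursor is shown with its probed arms, miR-25-5p and then miR-25-3p, in capitals, since both are released from one RNA.
Mir25: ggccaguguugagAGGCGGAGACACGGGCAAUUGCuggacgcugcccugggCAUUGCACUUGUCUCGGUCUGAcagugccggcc
For miR-25-5p the deposited values were 107, 75 and 113 units in DIV0 and 115, 79 and 87 in DIV3, with overlapping groups. Its normalized log2 fold change was -0.22 ± 0.12 (SE, adjusted p = 0.50). The cluster partners miR-106b-5p and miR-93-5p carry another seed, that of miR-17, which in mammals represses cell cycle inhibitors such as Cdkn1a.
miR-106b-5p: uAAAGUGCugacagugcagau
miR-93-5p: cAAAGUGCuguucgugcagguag
The log2 fold change of miR-106b-5p was 0.09 ± 0.18 and that of miR-93-5p was 0.02 ± 0.08 (SE, n = 3 per group). Of these 2 partners 0 passed (2.01% of all miRNAs tested), and none had an unadjusted p under 0.05 (14.7% of all). Under median scaling the 2 stood at 0.69 and 0.71. Set against its partners within each array, miR-25-3p lay lower in DIV3 in 3 of 3 pairs, by -0.36, -0.59 and -0.65 on the log2 scale relative to miR-106b-5p and by -0.65, -0.16 and -0.56 relative to miR-93-5p. The 3 DIV3 values of both of these within-array differences lay below the 3 DIV0 values, also in the deposited values. Against its own other arm, miR-25-5p, the difference was -0.22, with -0.63, -0.04 and 0.02 in the 3 pairs, and the groups overlapped. These within-array differences were not tested, and the share of all miRNA pairs that separate in this way was not computed. Nor were the differences computed with the local background or under median scaling, where miR-25-3p itself changed sign.

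miR-92b-3p, which like miR-32-5p comes from a precursor outside any cluster, is abundant in neural progenitors of the mammalian brain. Its deposited values were 182, 103 and 131 units in DIV0 and 242, 178 and 177 units in DIV3. The groups overlapped, since the DIV0 value of replicate 1 exceeded the DIV3 values of replicates 2 and 3, while DIV3 was higher in each of the 3 pairs. Group means of the normalized log2 intensity were 7.92 ± 0.25 and 8.16 ± 0.09 (SD, n = 3), and the log2 fold change was 0.25 ± 0.13 (SE; 95% interval -0.06 to 0.55; limma adjusted p = 0.48). With the replicate number as a block, a pairing inferred from these data, the SE was 0.08 (limma unadjusted p = 0.028, adjusted p = 0.21). Pairs 1, 2 and 3 differed by 0.15, 0.45 and 0.13. Without the DIV0 array of replicate 2 the log2 fold change was 0.11, in the deposited values it was 0.55, and under median scaling it was 0.80 (adjusted p = 0.60). The groups did not overlap under median scaling, under cyclic loess (0.34), or with 16 units added after scaling to a median of 25 (0.41). Under median scaling those of miR-92a-3p did not overlap either, and the share of all miRNAs without overlap was not computed for these settings. The mean of miR-92b-3p was positive under all alternatives that were run, although pair 1 alone was at -0.11 with the local background.

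The other arm of this precursor had the opposite sign. In the Mir92b hairpin the capitals mark miR-92b-5p and then miR-92b-3p.
Mir92b: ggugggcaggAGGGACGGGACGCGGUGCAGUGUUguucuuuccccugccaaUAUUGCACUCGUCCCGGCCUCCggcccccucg
miR-92b-5p read 891, 1068 and 734 deposited units in DIV0 and 1011, 517 and 597 in DIV3. The DIV3 values of replicates 2 and 3 lay below all DIV0 values, and that of replicate 1 did not. Its log2 fold change was -0.46 ± 0.19 (SE, adjusted p = 0.35), with 0.06, -0.997 and -0.44 in pairs 1, 2 and 3. Within arrays, miR-92b-3p minus miR-92b-5p was higher in DIV3 by 0.71 on the log2 scale, by 0.09, 1.45 and 0.57 in the 3 pairs, and the 2 groups of within-array differences did not overlap. The size of this gap rested mainly on pair 2. It was not tested, and the share of all miRNA pairs without overlap was not computed. Nor was the gap computed with the local background or under median scaling.

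miR-92a-3p, which closes the miR-17-92 cluster and is also made on the X chromosome, lay near no change. Deposited values were 276, 163 and 212 units in DIV0 and 303, 202 and 223 in DIV3, with overlapping groups. In normalized log2 intensity the means were 8.44 ± 0.23 and 8.41 ± 0.11 (SD, n = 3), a log2 fold change of -0.03 ± 0.12 (SE; 95% interval -0.33 to 0.27; limma adjusted p = 0.97). Its sign depended on the processing, with 0.17 in the deposited values, 0.06 under cyclic loess and 0.57 where arrays were brought to one median after the offset, against -0.24 with the local background.

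The partners of miR-92a-3p in the 2 large clusters had higher values in DIV3. Their sequences are shown because none carries the AUUGCAC seed: miR-17-5p, miR-20a-5p and miR-20b-5p share one seed, miR-19a-3p and miR-19b-3p a second, and miR-18a-5p has its own.
miR-17-5p: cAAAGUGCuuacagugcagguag
miR-20a-5p: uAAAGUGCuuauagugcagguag
miR-20b-5p: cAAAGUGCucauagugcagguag
miR-18a-5p: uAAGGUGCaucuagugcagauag
miR-19a-3p: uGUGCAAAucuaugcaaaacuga
miR-19b-3p: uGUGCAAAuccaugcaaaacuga
Of the 10 partner names listed for the 3 clusters, 8 were on the array, and RefSeq gives the mature product of the X-linked Mir106a the name miR-17-5p. None of the 8 passed an adjusted p of 0.05 (2.01% of all miRNAs tested). Their log2 fold changes ranged from 0.02 to 0.45 with a median of 0.40, against -0.006 for all miRNAs, and 5 of the 8 had groups without overlap (18.8% of all miRNAs). Under median scaling the 5 partners on chromosome 15 stood at 0.77 to 1.14, and under cyclic loess 1 of the 2 partners of miR-25-3p turned to -0.007. miR-19a-3p passed as higher with the replicate number as a block (0.43 ± 0.07 SE, adjusted p = 0.032), where 3.74% of miRNAs passed in either direction and 1.73% as higher, and without the block its adjusted p was 0.22. With the block under median scaling no miRNA passed (limma, 48 at an unadjusted p under 0.05). miR-17-5p, the brightest of them, read 2374, 1469 and 1648 deposited units in DIV0 and 3079, 2415 and 2368 in DIV3. Its log2 fold change was 0.42 ± 0.08 (SE, adjusted p = 0.062). miR-20b-5p, which comes from the X-linked cluster only, stood at 0.39 ± 0.09 (limma adjusted p = 0.086). miR-20a-5p, from chromosome 15 only, stood at 0.45 ± 0.13 (limma adjusted p = 0.18). Partners with the same seed are closely alike in sequence, and whether their probes capture each other's miRNA was not tested. Values for the 2 clusters may therefore not be separate readings.

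Relative to its cluster partners miR-92a-3p was lower in DIV3 in every pair. The within-array log2 difference between miR-92a-3p and miR-17-5p changed by -0.33, -0.43 and -0.59 in pairs 1, 2 and 3, and that to miR-19b-3p by -0.32, -0.42 and -0.69. For miR-18a-5p, whose own log2 fold change was smaller at 0.23, the changes were -0.22, -0.17 and -0.39. Against miR-19a-3p, miR-20a-5p and miR-20b-5p the 3 pairs also gave negative values, and for each of the 6 partners the DIV3 differences lay below the DIV0 differences. In the deposited values this separation held for 5 of the 6, the exception being miR-20a-5p. No test of these differences was run, the 6 share the values of miR-92a-3p, and partners close in sequence may share signal. The share of all miRNA pairs with such a separation was not computed, nor were these differences computed with the local background or under median scaling.

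The arms listed here as passenger arms, a kind usually degraded after the hairpin is cut, ranged from bright to near the blank spots. In deposited units miR-92b-5p averaged 898 in DIV0 and miR-92b-3p 139, which is not an order of abundance. miR-92a-1-5p from chromosome 15 was detected on 3 of 6 arrays and its log2 fold change was -0.03 ± 0.08 (SE). miR-92a-2-5p from the X chromosome was detected on all 6 arrays and stood at 0.20 ± 0.19, with 0.66 in pair 1 and -0.11 and 0.04 in pairs 2 and 3. Of the 6 passenger arms of the members, 0 passed (2.01% of all miRNAs tested). Their log2 fold changes were negative for 5 and positive for 1 (46.6% of all were above 0), and 3 and 3 under median scaling. Among 10 passenger arms of the partners on the array, 7 were tested and 0 passed, with 2 at an unadjusted p under 0.05 (14.7% of all): miR-17-1-3p at 0.30 ± 0.06 (adjusted p = 0.082) and miR-18a-3p at 0.20 ± 0.07 (adjusted p = 0.30).

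miR-363-3p, the last miRNA of the X-linked cluster, stayed near the blank spots. It read 19, 27 and 14 deposited units in DIV0 and 20, 19 and 18 in DIV3, so the DIV3 values lay inside the DIV0 range. Its log2 fold change was -0.05 ± 0.09 (SE; 95% interval -0.27 to 0.17; adjusted p = 0.85). Its other arm, miR-363-5p, was at -0.17 ± 0.08 (adjusted p = 0.43), with -0.17, -0.20 and -0.13 in the 3 pairs. The cluster partner miR-20b-5p, a far brighter probe, was at 0.39. Changes of so dim a probe are understated on this scale, because 50 units are added before the logarithm is taken.

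miR-32-5p, encoded in Tmem245, was equally dim. Deposited values of 17, 14 and 12 units in DIV0 and 18, 13 and 19 units in DIV3 overlapped. The log2 fold change was 0.05 ± 0.07 (SE; 95% interval -0.11 to 0.20; adjusted p = 0.80), with -0.01, -0.01 and 0.17 in the pairs. Most of this came from the DIV3 array of replicate 3, without which it was -0.005. Its other arm, miR-32-3p, stood at -0.03 ± 0.11 (adjusted p = 0.93).

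**Figure D2:**
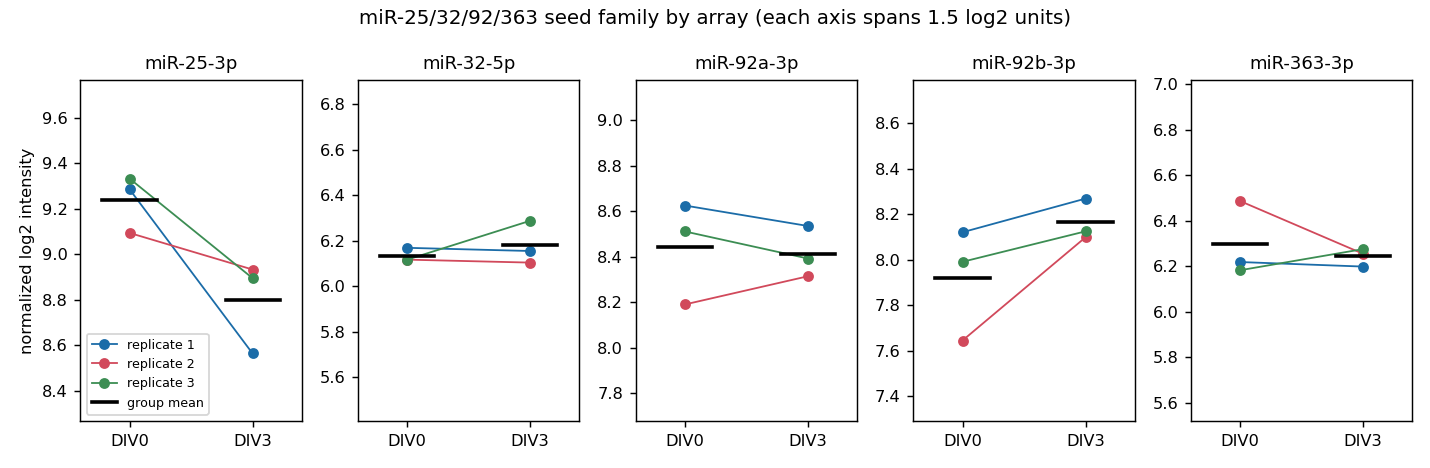
Normalized log2 intensity of the 5 members in DIV0 and DIV3; points are arrays, coloured lines join arrays of equal replicate number and black bars are group means (n = 3). miR-25-3p is lower in DIV3 in 3 of 3 pairs and miR-92b-3p higher in 3 of 3, and the other members have lines in both directions.

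**Figure D3:**
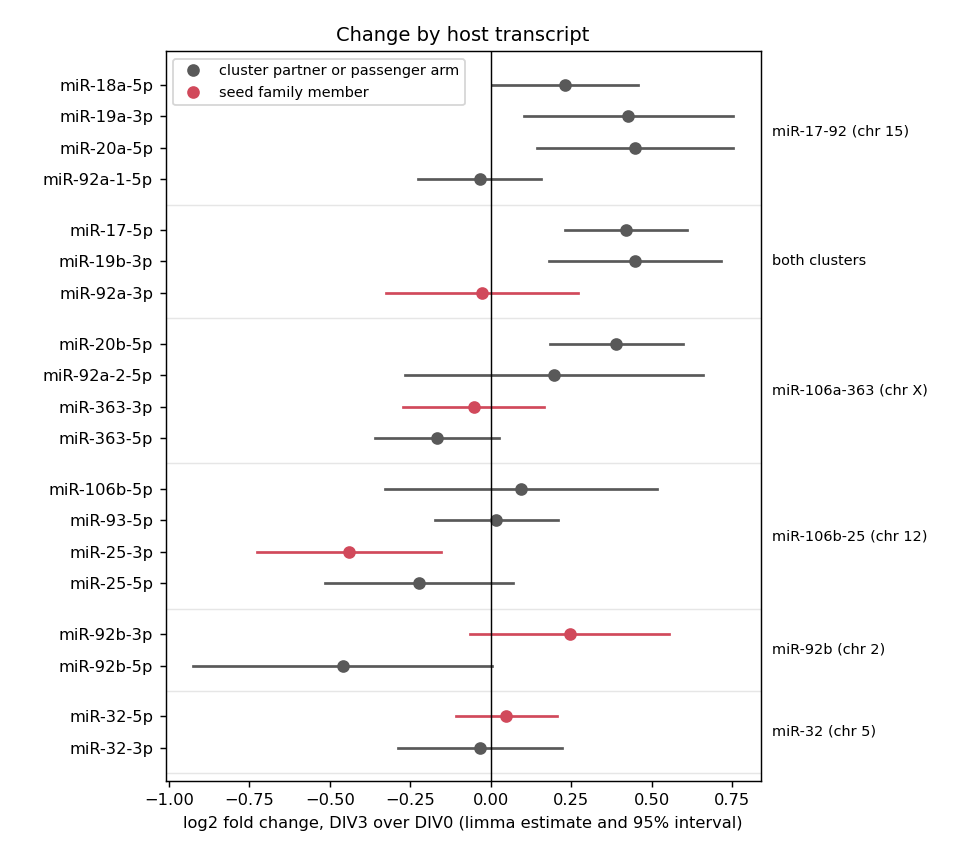
Log2 fold change of DIV3 over DIV0 with its 95% interval from limma for members (red) and for their cluster partners and passenger arms (grey), grouped by precursor cluster. The intervals of miR-17-5p, miR-18a-5p, miR-19a-3p, miR-19b-3p, miR-20a-5p and miR-20b-5p lie above 0, and those of miR-92a-3p and miR-363-3p, from the same clusters, span it. That of miR-25-3p lies below 0. Intervals are not adjusted for the number of miRNAs, and none of the miRNAs shown passed in this fit.

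Whether 2 members changed unequally was tested for all 10 pairs of members, from their log2 difference within each array. Between 3 and 3 arrays the exact permutation test (two-sided) cannot go below p = 0.1. This smallest value was reached by 4 of the 10 pairs, each with an adjusted p of 0.25 over the 10. The share of all miRNA pairs that reach it was not computed. A p of 0.1 says only that the groups of differences did not overlap. Most of the 4 pairs share miR-25-3p, whose own groups did not overlap, so they are not separate results. No gap of any size could have passed at 0.05, and the test leaves the pairing out, so the gaps below are given by their size and spread. The largest gap was between miR-25-3p and miR-92b-3p. Their difference was 1.32 ± 0.14 in DIV0 and 0.63 ± 0.29 in DIV3 (SD, n = 3), a shift of -0.69 on the log2 scale or 1.61-fold, with -0.87, -0.62 and -0.57 in the 3 pairs (exact permutation p = 0.1). For miR-25-3p against miR-92a-3p the shift was -0.41 and against miR-32-5p -0.49 (exact permutation p = 0.1 each). The most even of these gaps was between the closest sequences: miR-92a-3p minus miR-92b-3p was 0.53 ± 0.02 in DIV0 and 0.25 ± 0.03 in DIV3 (SD, n = 3), a shift of -0.27 with -0.24, -0.33 and -0.25 in the 3 pairs (exact permutation p = 0.1). The shift of miR-92a-3p against miR-92b-3p was -0.23 to -0.40 under median scaling, cyclic loess, the local background and in the deposited values, without overlap in any of these. That of miR-25-3p against miR-92b-3p was -0.66 to -0.94 under the same settings other than the local background, where it was -0.12 with 1.07 in pair 1 and overlapping groups. The shift of miR-25-3p against miR-92a-3p turned to 0.28 with the local background, and that against miR-32-5p to 0.16 under median scaling.

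**Figure D4:**
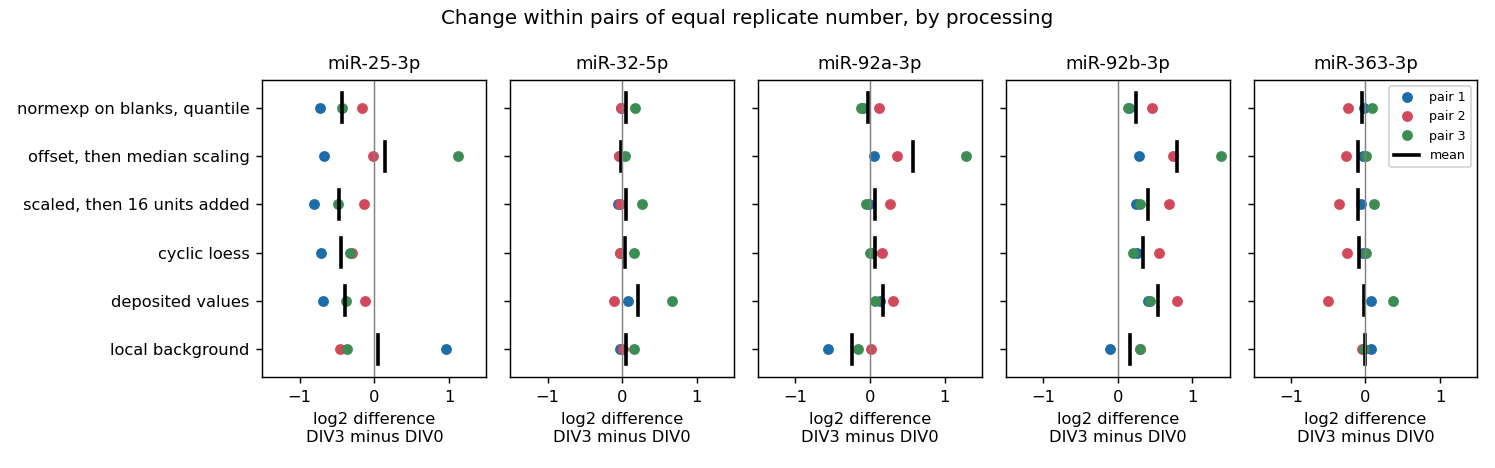
Log2 difference of DIV3 minus DIV0 within each pair of equal replicate number (coloured points) and its mean (black bar), for the 5 members under 6 ways of processing. For miR-25-3p pair 3 moves from -0.44 to 1.12 when arrays are brought to one median after the offset, and pair 1 moves from -0.72 to 0.96 with the local background.

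Over the 6 arrays the normalized level of miR-25-3p was most like that of miR-21-5p (Pearson r = 0.93) and miR-130b-3p (0.92), among the miRNAs tested. miR-21-5p, abundant in proliferating cells, was lower in DIV3 (log2 fold change -0.78, limma adjusted p = 0.036), a call that was lost without any 1 of the 4 arrays named for the markers. No miRNA passed as lower with the local background, an offset of 16, median scaling, slide as a fixed block or the deposited values (50 to 92 in either direction at an unadjusted p under 0.05), so the call was lost there too. For miR-92b-3p the closest were miR-542-5p (0.98) and miR-100-5p (0.96), for miR-92a-3p miR-298-3p (0.96) and miR-129-1-3p (0.94), for miR-32-5p miR-103-2-5p (0.98) and miR-449c-5p (0.96), and for miR-363-3p miR-702-5p (0.95) and miR-664-2-5p (0.94). These are the highest coefficients among the 695 miRNAs tested, over 6 arrays that share normalization and condition, and they are given as a description only. Within the family the coefficient was 0.71 between miR-92a-3p and miR-92b-3p, 0.12 between miR-25-3p and miR-92a-3p and -0.47 between miR-25-3p and miR-92b-3p.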

How the data were processed

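The scanner files list 3200 spots per array with raw median intensity for spot and surroundings, joined from scans at 3 gains, per the file headers. A deposited value table gives intensity again, and each of its columns proved to be linear in the spot intensity (largest deviation 0.522 units), zero at the blank mean and scaled to a median of 25, with no sign of centring.

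Here spot intensities were background-corrected by normexp against the 1664 BLANK spots with an offset of 50 (limma 3.58.1, R 4.3.3). They were then log2-transformed and quantile-normalized over 761 miRNA probes, leaving out 1 spot flagged by the scanner. Fold changes are thus on the log2(intensity + 50) scale. Local background tracked the spots themselves (correlations of 0.939 to 0.982) and served only as an alternative. A miRNA was detected if it exceeded the blank mean by 2 SD, with 5% of blanks trimmed at each end. The 695 miRNAs detected on at least 3 of 6 arrays entered lmFit and eBayes (two-sided, Benjamini-Hochberg, threshold 0.05). Precision is limited by the 6 arrays.

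Replicate numbers 1 to 3 in the titles were taken to pair the samples, because equal numbers shared their deviations from the group means (correlations of 0.37, 0.53 and 0.47). The pairing is thus inferred from these data. For replicates 1 and 2 a shared origin cannot be told apart from the shared slide, while the arrays of replicate 3 were on slides 3 and 4. Values with the number as a block are given where a call changes, and for miR-92b-3p. Alternatives covered background, offset, scaling, filter, slide, block and left-out arrays. Named miRNAs were the members, listed cluster partners, passenger arms and cell type markers, and the 2 miRNAs most correlated with each member. Members, lists and rules were chosen with earlier results of these data known. The fitting code was tested on simulated data.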

Additional observations from a re-analysis of the deposited data

How the results depend on the processing

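No member passed the threshold under any alternative run, and miR-92b-3p kept its positive sign in all of them. With the replicate number as a block the log2 fold changes of the members were the same, 26 miRNAs passed in place of 14, 1 cluster partner passed as higher in place of 0, and no member's call changed. The count of miRNAs past the threshold was 1 with the local background, 6 with an offset of 16, 4 under median scaling, 0 from the deposited values (7 with 16 units added), 29 with slide as a random and 0 as a fixed block, 0 with the replicate block under median scaling, 0 without both arrays of replicate 3 (limma, 60 at an unadjusted p under 0.05), and 0 to 13 with 1 array left out. Leaving out any 1 DIV3 array, or DIV0 of replicate 3, gave 0, and leaving out DIV0 of replicate 2 gave 7. With 1 array left out, the log2 fold change was -0.51 to -0.32 for miR-25-3p, -0.155 to 0.063 for miR-92a-3p, 0.11 to 0.35 for miR-92b-3p, -0.11 to 0.042 for miR-363-3p (-0.126 without both arrays of replicate 3) and -0.0049 to 0.087 for miR-32-5p. Sign changes were as follows. miR-25-3p stood at 0.043 with the local background and at 0.14 under median scaling, with or without the block. miR-32-5p stood at -0.014 under median scaling, with or without the block, and at -0.014 with slide fixed or without both arrays of replicate 3. miR-92a-3p stood at 0.57 under median scaling, with or without the block, 0.064 under cyclic loess, 0.071 with 16 units added after scaling to a median of 25, 0.17 in the deposited values, 0.16 with 16 units added to them, and 0.017 with slide fixed or without both arrays of replicate 3. Among differences between members, miR-25-3p minus miR-32-5p and minus miR-363-3p turned to 0.16 and 0.24 under median scaling, miR-25-3p minus miR-92a-3p and minus miR-363-3p to 0.28 and 0.044 with the local background, miR-92a-3p minus miR-363-3p to -0.23 with it, and miR-32-5p minus miR-92a-3p to -0.59 under median scaling and -0.029 under cyclic loess. The causes were not tested. The settings that combine the block with median scaling, and that leave out both arrays of replicate 3, were chosen after seeing the data. Signal over background limits miR-32-5p and miR-363-3p.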
